A study of Mus musculus with 16 samples.

Results

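The genes described here set and reset a translational brake, the phosphorylation of the initiation factor eIF2. The set was chosen by name as 10 genes: the 4 eIF2 kinases (Eif2ak1, Eif2ak2, Eif2ak3 and Eif2ak4), the phosphatase subunits Ppp1r15a and Ppp1r15b, the kinase substrate Eif2s1, the eIF2B subunit Eif2b5, and the GCN2 regulators Impact and Gcn1l1. All 10 were found, each as 1 row, among the 22322 genes of the deposited tables, and all 10 passed the filter on low counts in both tissues. The tables come from mice with diet-induced obesity that were injected into the peritoneum with vehicle or with halofuginone at 100 μg/kg, 1 dose every 2 days for 8 weeks. Libraries labelled H100 are taken as halofuginone and those labelled HFD as vehicle, which no label says outright, and every fold change rests on this reading. Poly(A) RNA was sequenced from liver (5 vehicle and 5 halofuginone libraries) and from white adipose tissue, called fat below (3 and 3). Both arms share the obesity. The sources used here give neither strain, sex, age, diet composition nor fat depot, and they do not say whether animals were pooled or whether libraries came from separate animals, so p-values measure only the spread between these libraries.

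As background, eIF2 carries the initiator tRNA to the ribosome, and eIF2B, its exchange factor, reloads it with GTP. When a kinase phosphorylates the alpha subunit of eIF2, encoded by Eif2s1, eIF2B is blocked, most translation slows, and the mRNA of the transcription factor ATF4 is translated better. The kinases answer different signals: HRI (Eif2ak1) responds to heme shortage and mitochondrial stress, PKR (Eif2ak2) to double-stranded RNA, PERK (Eif2ak3) to unfolded proteins in the endoplasmic reticulum, and GCN2 (Eif2ak4) to uncharged tRNA and stalled ribosomes. GCN1, the product of Gcn1l1, is needed for GCN2 activation on ribosomes, and IMPACT competes with GCN2 for GCN1. GADD34 (Ppp1r15a, induced by stress) and CReP (Ppp1r15b, constitutive) bring protein phosphatase 1 to eIF2 and remove the phosphate. Halofuginone inhibits prolyl-tRNA synthetase, so uncharged proline tRNA accumulates, a signal read by GCN2. The values below are of mRNA and do not measure phosphorylation or kinase activity.

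Promoter stretches are shown for the 3 members that held a motif of an interferon or a CREB/ATF factor, since Eif2ak2 is an interferon-stimulated gene and Ppp1r15a a stress-induced gene. They were read from RefSeq promoter windows (250 bases before to 50 after each start, GRCm38.p6), which held 8 of the 10 members. Capitals mark, in the first 3 stretches, GAAA followed after any 2 bases by GAAA again (the core of the interferon-stimulated response element) and, in the last, the palindrome TGACGTCA (the cyclic AMP response element). Each reads 5′ to 3′ on the strand of the gene.
Eif2ak2: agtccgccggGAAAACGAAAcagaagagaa
Eif2s1: cctggagcaaGAAACAGAAActtacctctc
Ppp1r15a, interferon motif: aaaataaaagGAAAGGGAAAtggcacggta
Ppp1r15a, CREB/ATF motif: cgcctctccggTGACGTCAgcacagcgccg
The stretch of Eif2ak2 lies at chr17:78882535-78882564 (minus strand, motif 19 to 28 bases after the start), and that of Eif2s1 at chr12:78861850-78861879 (plus strand, motif 212 to 203 bases before the start). Those of Ppp1r15a lie on the minus strand at chr7:45526469-45526498 (motif 220 to 211 bases before the start) and chr7:45526262-45526291 (motif 12 to 5 bases before it). These coordinates locate the RefSeq sequences only, because the submitters' processing notes name mm39 for the counts. The interferon motif, searched on both strands, was in 3.44% of 32851 promoter windows of all genes and in 7 of 15 windows of a list of interferon-stimulated genes. TGACGTCA, chosen after the Ppp1r15a window had been read, was in 1.79% of all windows. The motif TGATGNAA, found in many amino acid response elements, was searched on both strands and was in 3.97% of all windows, in 6 of 15 windows of a list of ATF4 targets and in 0 of the 9 windows of the members.

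The library labelled halofuginone liver 1 stood apart from the other halofuginone livers over all genes and over ATF4 targets. Its score on the first principal component of all genes was −23.3, near the vehicle livers (−36.0 to −28.3), whereas the other 4 lay between 32.4 and 58.0. Over 12 ATF4 targets, its median difference from the vehicle mean was −0.12 on the log2 scale, against 2.08 to 2.86 in the other 4. Liver calls are therefore given with and without it. It was singled out for lying near vehicle, so leaving it out favours larger drug effects and a smaller spread. Calls made without it describe this dependence and are no added evidence of an effect. In fat the first component did not separate the arms: vehicle replicates 1 to 3 scored −9.62, 65.7 and 16.3, and halofuginone replicates −37.9, −60.0 and 25.5. Tissue markers matched the labels: hepatocyte markers summed to 110700 to 126200 CPM (normalised read counts, scaled to library sizes adjusted with TMM factors) in vehicle liver and to 16.2 CPM at most in vehicle fat, and adipocyte markers to 185 CPM at most in vehicle liver and to at least 12780 CPM in vehicle fat. Library totals were 20309956 to 31980683 counts in liver and 17070614 to 21387799 in fat. Every member was well covered, the thinnest being Eif2ak4 in vehicle liver 2 with 127 counts.

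In liver, 4 of the 10 members changed under halofuginone: Gcn1l1, Eif2s1 and Eif2b5 rose and Eif2ak2 fell. The other 3 kinases, GCN2 itself among them, both phosphatase subunits and Impact did not pass the threshold. Changes are given as the log2 fold change (log2FC) of halofuginone against vehicle. Calls are edgeR quasi-likelihood tests with Benjamini-Hochberg adjustment over all 12311 genes tested, at an adjusted p under 0.05. By this rule 23.2% of all liver genes were called, 12.7% higher and 10.5% lower, so the members' share is to be read against a tissue in which many genes changed. The median log2FC was 0.15 over the members and 0.017 over all genes. At an unadjusted p under 0.05 there were 5 of 10 members, against 39.1% of all genes. The groups did not overlap in 1 of 10 members, which was higher, against 11.7% of all genes (5.13% higher and 6.55% lower). Without halofuginone liver 1, 6 of 10 members were called (4 higher, 2 lower), the added ones being Ppp1r15a and Impact, and the share of all genes called rose likewise, to 42.8% (21.2% higher and 21.6% lower).

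**Figure D1:**
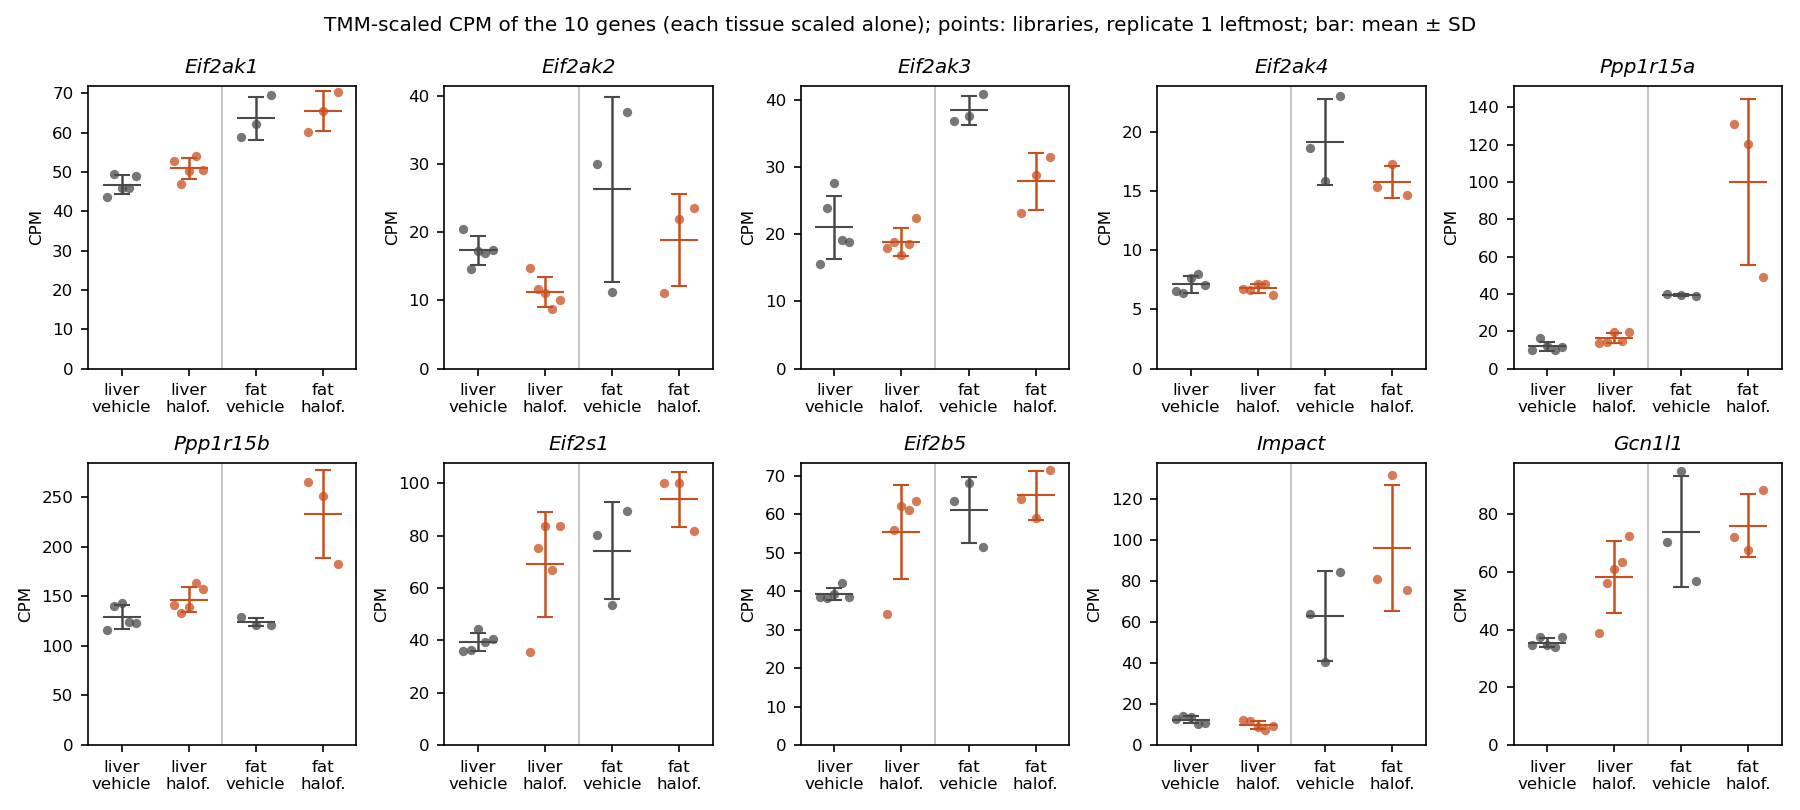
CPM (vertical axes, from 0; each tissue scaled alone) of each of the 10 genes in the 16 libraries, with vehicle in grey, halofuginone in orange and mean ± SD as bars. In liver, halofuginone replicate 1 (leftmost orange point) sits with the vehicle libraries for Eif2s1 and Eif2b5; in fat, all 3 halofuginone libraries lie above vehicle for Ppp1r15a and Ppp1r15b.

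Among the kinases, Eif2ak2 (PKR, ENSMUSG00000024079) fell in liver. Vehicle livers 1 to 5 held 20.6, 14.7, 17.2, 17.0 and 17.3 CPM, and halofuginone livers 1 to 5 held 14.8, 11.7, 11.02, 8.76 and 10.02 CPM. Replicates 2 to 5 of halofuginone all lay below every vehicle library, and replicate 1 lay just above the lowest of them. The means were 17.3 ± 2.10 and 11.2 ± 2.25 CPM (SD, n = 5 each), with a log2FC of −0.63 (SE 0.14, edgeR adjusted p 0.0135), or 0.647-fold. Leaving out halofuginone liver 1 gave a log2FC of −0.77 (edgeR adjusted p 0.000552). The call was lost when all 16 libraries were fitted together (log2FC −0.63, edgeR adjusted p 0.114).

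Eif2ak2 fell beside other interferon-stimulated genes. A list of 18 such genes was chosen, like all lists here, with earlier results of these data known. Of these, 13 fell and 0 rose in liver, against 10.5% and 12.7% of all genes, with a median log2FC of −0.96. The ubiquitin-like modifier Isg15 fell by 1.02 on the log2 scale (SE 0.16), the oligoadenylate synthetase-like gene Oasl2 by 0.95 (SE 0.18) and the deconjugating protease Usp18 by 1.12 (SE 0.22), with edgeR adjusted p-values of 0.00444, 0.00780 and 0.00857. With halofuginone liver 1 left out, 17 of the 18 fell, against 21.6% of all genes. That library was again nearest to vehicle, with a list median 0.23 below the vehicle mean on the log2 scale where the other 4 lay 0.96 to 1.46 below. Of 8 macrophage markers in liver, 1 rose and 0 fell, with sums of 384 to 490 CPM in vehicle and 383 to 623 CPM under halofuginone. The 623 CPM was halofuginone liver 1, and the other treated livers lay at 383 to 444.5 CPM. Lymphocyte markers summed to 11.03 CPM in that library. They summed to 1.60 to 3.40 CPM in the other treated livers and 1.90 to 3.97 CPM in vehicle. Fibroblast markers had 3 of 8 lower and 0 higher (200 to 293 and 135 to 224 CPM), and endothelial markers 3 of 8 lower and 1 higher (169.6 to 196 and 157 to 196 CPM). The part of these cell types in the fall of Eif2ak2 and of the list was not tested. In bulk tissue, fewer cells of a type and less RNA per cell cannot be told apart.

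The remaining kinases moved little in liver. Eif2ak1 (HRI, ENSMUSG00000029613) ranged from 43.7 to 49.5 CPM in vehicle and from 47.0 to 54.1 CPM under halofuginone, a log2FC of 0.12 (SE 0.075, edgeR adjusted p 0.248). For Eif2ak3 (PERK, ENSMUSG00000031668) the ranges were 15.6 to 27.6 and 16.8 to 22.3 CPM, with a log2FC of −0.15 (SE 0.15, edgeR adjusted p 0.471). Eif2ak4 (GCN2, ENSMUSG00000005102) lay within a narrow band in both arms, 6.36 to 8.03 and 6.25 to 7.18 CPM, with a log2FC of −0.075 (SE 0.10, edgeR adjusted p 0.620). The signs of Eif2ak3 and Eif2ak4 flipped with scaling by library size alone (0.0053 and 0.082), and Eif2ak1 was then called higher (0.28, edgeR adjusted p 0.0327). Leaving out halofuginone liver 1 gave 0.088, −0.16 and −0.092 for Eif2ak1, Eif2ak3 and Eif2ak4, none called (edgeR adjusted p 0.350, 0.454 and 0.503). Scaling by library size alone moved the median log2FC of all liver genes from 0.017 to 0.17. Hepatocyte markers, which include the most abundant liver transcripts, summed to 40650 to 105800 CPM under halofuginone, below vehicle in all 5 libraries. Of these 8 markers, 2 were called lower and 1 higher, against 10.5% and 12.7% of all genes. Alb, the largest part of the sum, had means of 94150 CPM in vehicle and 51780 CPM under halofuginone, whereas Tat rose from 662 to 2099 CPM. The part of the lower sum in the scaling was not tested.

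Shares within a library do not depend on how libraries are scaled to each other. By deposited FPKM (a level per transcript length and library size), Eif2ak1 made up 47.3 to 54.2% of the summed level of the 4 kinases in vehicle liver and 56.8 to 62.3% under halofuginone. The groups did not overlap, and halofuginone liver 1, at 58.0%, lay with the other treated livers. A share also rises when another part of the sum falls, as Eif2ak2 did. The separation of the shares therefore does not by itself show a rise of Eif2ak1, whose log2FC was not called (edgeR adjusted p 0.248). The share of Eif2ak2 was 19.3 ± 3.06% in vehicle and 13.0 ± 2.38% under halofuginone (SD, n = 5), with ranges that touched only through halofuginone liver 1. Eif2ak4 held 6.81 ± 0.844% and 6.77 ± 0.318% of the kinase level in the same groups, the smallest share in every library of either arm. The summed level of the kinases was 19.9 ± 0.766 FPKM in vehicle liver and 21.1 ± 1.22 FPKM under halofuginone.

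**Figure D2:**
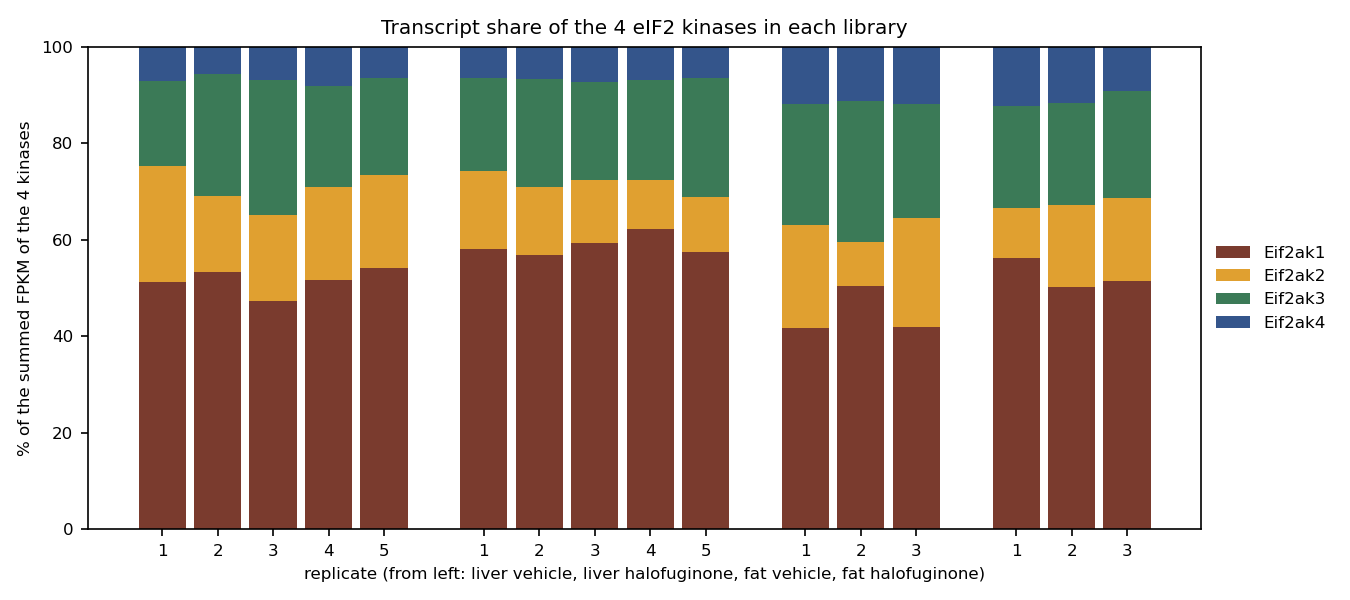
Share of each kinase in the summed FPKM of the 4 eIF2 kinases (vertical axis, percent), 1 bar a library, grouped from left as liver vehicle, liver halofuginone, fat vehicle and fat halofuginone. Eif2ak1 takes 56.8 to 62.3% in treated liver against 47.3 to 54.2% in vehicle liver, and Eif2ak4 takes more in vehicle fat (11.2 to 11.9%) than in vehicle liver (5.68 to 8.01%).

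The substrate gene Eif2s1 and the eIF2B subunit gene Eif2b5 rose in liver. Eif2s1 (the alpha subunit of eIF2, ENSMUSG00000021116) was at 35.9, 36.5, 44.2, 39.4 and 40.3 CPM in vehicle livers 1 to 5 and at 35.7, 75.3, 83.7, 66.8 and 83.8 CPM in halofuginone livers 1 to 5. Halofuginone replicate 1 lay below every vehicle library, and the other 4 lay far above all of them. The means were 39.3 ± 3.35 and 69.1 ± 19.9 CPM (SD, n = 5 each), with a log2FC of 0.81 (SE 0.20, edgeR adjusted p 0.0173), or 1.76-fold. Without halofuginone liver 1 it was 0.96 (SE 0.094, edgeR adjusted p 3.68e-05).

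Eif2b5, which encodes the catalytic epsilon subunit of eIF2B (ENSMUSG00000003235), had the same split. Vehicle livers held 38.6, 38.2, 39.4, 42.0 and 38.5 CPM, and halofuginone livers held 34.1, 56.0, 62.2, 61.3 and 63.6 CPM. Again halofuginone replicate 1 was below all vehicle libraries and the other 4 were above them. The log2FC was 0.49 (SE 0.15, edgeR adjusted p 0.0355), or 1.41-fold, and 0.61 (SE 0.069, edgeR adjusted p 9.11e-05) without that library. Leaving out any 1 of the other 9 libraries ended the call (edgeR adjusted p 0.0592 to 0.0854) with log2FC of 0.44 to 0.52, and so did the replicate number as a block (0.46, edgeR adjusted p 0.0627).

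GCN1 was the member with the smallest liver p and the only member whose groups did not overlap there. Gcn1l1 (ENSMUSG00000041638) stood at 34.5, 37.3, 34.5, 33.8 and 37.4 CPM in vehicle livers 1 to 5 and at 38.7, 56.1, 61.0, 63.4 and 72.5 CPM in halofuginone livers 1 to 5. All 5 treated libraries lay above vehicle, replicate 1 by the narrowest margin. The means were 35.5 ± 1.69 and 58.3 ± 12.5 CPM (SD, n = 5 each), a log2FC of 0.72 (SE 0.14, edgeR adjusted p 0.00900), or 1.64-fold. The log2FC was 0.81 (SE 0.085, edgeR adjusted p 5.85e-05) when halofuginone liver 1 was left out.

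Impact (ENSMUSG00000024423), the competitor of GCN2 for GCN1, tended the other way in liver but overlapped between the arms. Vehicle livers held 12.6, 14.2, 13.6, 10.3 and 10.9 CPM, and halofuginone livers held 11.97, 11.9, 8.76, 7.37 and 9.12 CPM. Replicates 3 to 5 of halofuginone lay below every vehicle library, and replicates 1 and 2 within the vehicle range. The log2FC was −0.33 (SE 0.15, edgeR adjusted p 0.131). Without halofuginone liver 1 it was −0.43 and was called (edgeR adjusted p 0.0363).

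The phosphatase subunits did not pass the threshold in liver. Ppp1r15a (ENSMUSG00000040435) was at 9.98, 16.2, 11.8, 9.82 and 11.7 CPM in vehicle livers and at 13.8, 14.3, 19.7, 14.7 and 19.4 CPM in halofuginone livers. Vehicle replicate 2 lay above 3 of the 5 treated libraries, and the other 4 vehicle libraries lay below all of them. The log2FC was 0.46 (SE 0.16, edgeR adjusted p 0.0558). It was called without vehicle liver 2 (0.58, edgeR adjusted p 0.0319), without halofuginone liver 1 (0.50, edgeR adjusted p 0.0295), by DESeq2 (0.46, adjusted p 0.0447) and with scaling by library size alone (0.64, edgeR adjusted p 0.0204). Ppp1r15b (ENSMUSG00000046062) ranged from 116 to 143 CPM in vehicle and from 133 to 163 CPM under halofuginone, with a log2FC of 0.18 (SE 0.10, edgeR adjusted p 0.202), and it was called with scaling by library size alone (0.34, edgeR adjusted p 0.0286) but not without halofuginone liver 1 (0.17, edgeR adjusted p 0.187). For comparison, the median log2FC of the 12 ATF4 targets in liver was 2.36. Of the 12, 9 were higher and 1 lower, against 12.7% and 10.5% of all genes. Without halofuginone liver 1 the counts were 11 and 1, against 21.2% and 21.6%.

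**Figure D3:**
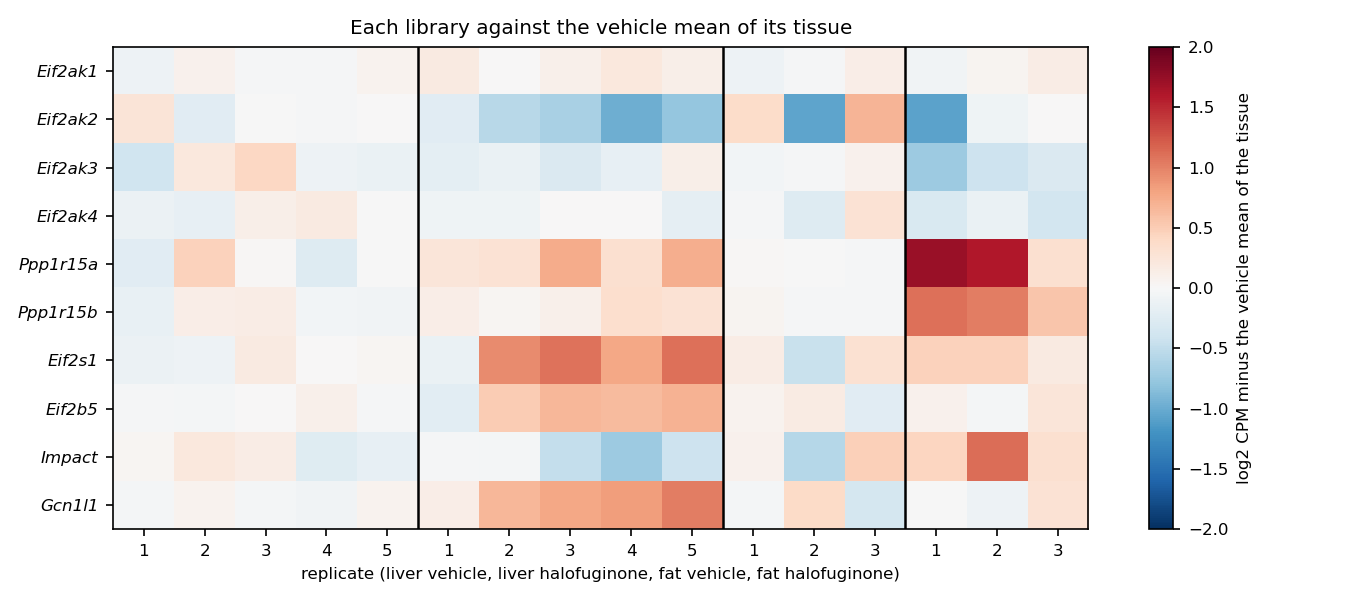
Log2 CPM of each gene in each library minus the vehicle mean of that tissue (colour, red above and blue below), with libraries grouped as liver vehicle, liver halofuginone, fat vehicle and fat halofuginone and numbered by replicate. Eif2s1, Eif2b5 and Gcn1l1 are red in halofuginone livers 2 to 5, and Ppp1r15a and Ppp1r15b are redder in halofuginone fat 1 and 2 than in 3.

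In fat no member passed the threshold, and the phosphatase subunits were those with the smallest p. edgeR called 0 of 14030 genes there (0%), so a count of 0 among the members says nothing particular about them. At an unadjusted p under 0.05, 3 of 10 members (Ppp1r15a and Ppp1r15b higher, Eif2ak3 lower) stood against 13.4% of all genes, and the same 3 had groups that did not overlap, against 20.6% (10.2% higher and 10.4% lower). DESeq2 called 2 members, Ppp1r15a and Ppp1r15b, against 3.53% of all genes (1.12% higher). By limma on FPKM 0 members were called, against 0.107% and 0% of all genes with 1 and 0.1 added to FPKM. Macrophage markers moved with the drug in fat, 7 of 8 lying below vehicle without overlap, against 10.4% of all genes. They summed to 6444, 5536 and 10600 CPM in vehicle fat 1 to 3 and to 3354 to 3866 CPM under halofuginone. Fibroblast markers summed to 4267 to 5661 and 2902 to 3461 CPM, and skeletal muscle markers to 95.4 to 176 and 54.4 to 63.6 CPM. Vehicle fat 3 stood apart, with adipocyte markers at 12780 CPM against 24220 and 24510 CPM in vehicle fat 1 and 2. Endothelial markers there were at 601.5 CPM against 1297 and 1566 CPM. The part of these cell types in the values of the members was not tested.

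Ppp1r15a in fat was nearly constant in vehicle, at 40.2, 39.3 and 38.8 CPM in replicates 1 to 3. Under halofuginone it was at 131, 120 and 49.1 CPM. All 3 treated libraries lay above vehicle, but replicate 3 by much less than the other 2. The means were 39.4 ± 0.671 and 100.2 ± 44.6 CPM (SD, n = 3 each), a log2FC of 1.34 (SE 0.35, edgeR unadjusted p 0.00697, adjusted p 0.216), or 2.54-fold. It was 1.69 without halofuginone fat 3 and 1.11 without halofuginone fat 1.

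Ppp1r15b was at 129, 121 and 121 CPM in vehicle fat and at 265, 251 and 183 CPM in halofuginone fat. The order of the treated libraries was the same as for Ppp1r15a, and none overlapped with vehicle. The means were 124 ± 4.36 and 233 ± 44.1 CPM (SD, n = 3 each), with a log2FC of 0.91 (SE 0.18, edgeR unadjusted p 0.00171, adjusted p 0.159), or 1.88-fold. In the fit of all 16 libraries together both subunits were called in fat, where 2.25% of all genes were (0.592% higher), Ppp1r15a at 1.32 (edgeR adjusted p 0.0238) and Ppp1r15b at 0.89 (edgeR adjusted p 0.00773), and by DESeq2 the adjusted p-values were 0.0148 and 0.000615. ATF4 targets had a median log2FC of 1.26 in fat, with 8 of 12 above vehicle without overlap, against 10.2% of all genes. Their median per library was 1.41, 1.39 and 0.85 above the vehicle mean in halofuginone fat 1 to 3.

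Eif2ak3 was the kinase with the smallest p in fat. Vehicle fat held 36.8, 37.6 and 40.8 CPM and halofuginone fat held 23.2, 28.8 and 31.5 CPM. All treated libraries lay below vehicle, with a log2FC of −0.46 (SE 0.16, edgeR unadjusted p 0.0249, adjusted p 0.309). Hspa5, the chaperone that holds PERK inactive in the endoplasmic reticulum, was at a log2FC of −0.49 (SE 0.40) in fat and −0.51 (SE 0.33) in liver, neither called.

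Eif2ak2 was the most scattered member in fat. Vehicle replicates 1 to 3 held 30.1, 11.2 and 37.6 CPM and halofuginone replicates 11.04, 22.0 and 23.5 CPM, and the lowest library of each arm was nearly equal. The log2FC was −0.48 (SE 0.48, edgeR adjusted p 0.721), and it was −0.13 without vehicle fat 3 and −0.84 without vehicle fat 2. All 18 interferon-stimulated genes had a log2FC above 0 in fat (median 0.92). Of these, 0 were called in edgeR and 2 had an unadjusted p under 0.05, against 0% and 13.4% of all genes. The median of the list per halofuginone library spread widely, at −0.51, 0.57 and 1.86 against the vehicle mean. Eif2ak2 had the same order over these libraries, at −1.07, −0.086 and 0.010 on the log2 scale. The relation of Eif2ak2 to the list in fat was not tested.

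The other members showed no separation in fat. Impact was at 64.1, 40.6 and 84.3 CPM in vehicle and at 80.9, 131 and 75.6 CPM under halofuginone, a log2FC of 0.61 (SE 0.33, edgeR adjusted p 0.472), with 2 of the 3 treated libraries below the highest vehicle library. Eif2s1 (0.34, SE 0.22), Eif2b5 (0.088, SE 0.16), Gcn1l1 (0.040, SE 0.22), Eif2ak1 (0.041, SE 0.14) and Eif2ak4 (−0.28, SE 0.19) had edgeR adjusted p-values from 0.564 to 0.961. The signs of Eif2ak1, Eif2b5 and Gcn1l1 each changed when a single library was left out. Eif2s1 was lowest in vehicle fat 2 (53.4 CPM, against 80.1 and 89.5 CPM in the others), where Gcn1l1 was highest (94.9 CPM, against 70.2 and 56.9 CPM).

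**Figure D4:**
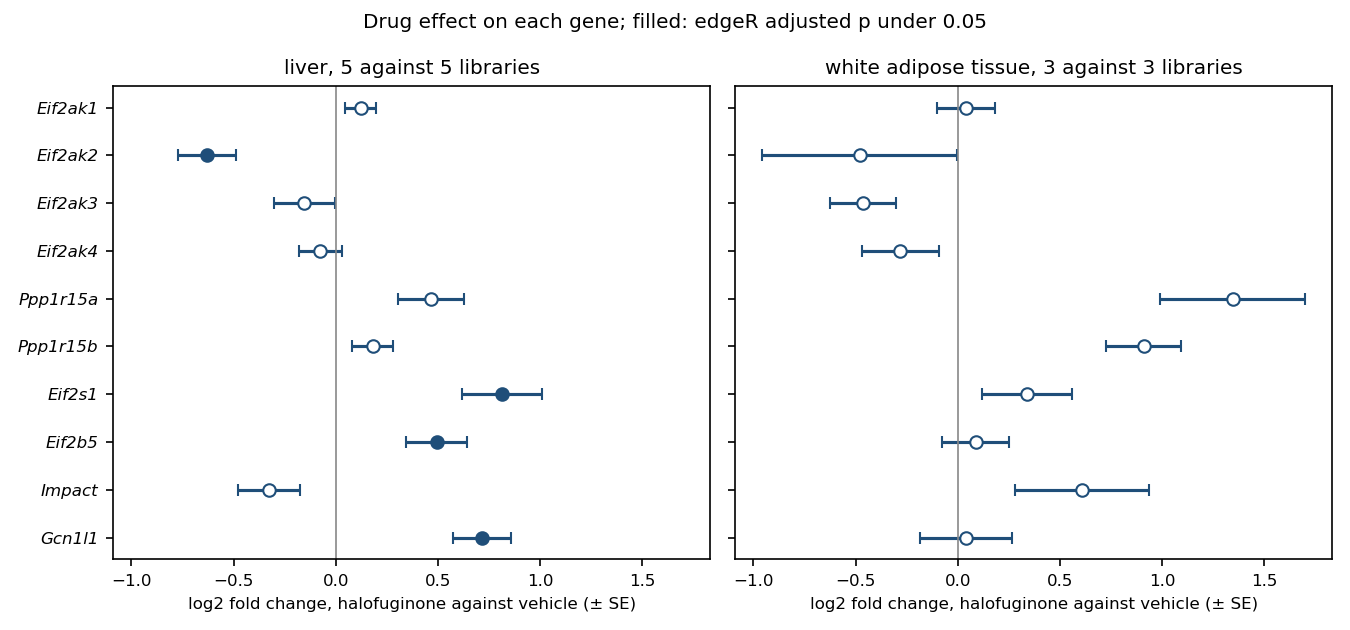
Log2 fold change of halofuginone against vehicle (horizontal axis, ± SE) for the 10 genes in liver (left) and fat (right); filled points have an edgeR adjusted p under 0.05. Eif2s1, Eif2b5 and Gcn1l1 are filled to the right of 0 and Eif2ak2 to the left in liver, while in fat the largest values, unfilled, are those of Ppp1r15a (1.34) and Ppp1r15b (0.91).

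Whether the drug effect differed between the tissues was tested in a joint fit as the effect in fat minus the effect in liver. edgeR called 141 of 14853 genes (0.949%, with 0.417% higher and 0.532% lower) and 0 of the 10 members. At an unadjusted p under 0.05 there were 4 members, against 15.7% of all genes: Ppp1r15b (0.71, SE 0.19, adjusted p 0.0822), Impact (0.92, SE 0.32, adjusted p 0.171), Ppp1r15a (0.85, SE 0.35, adjusted p 0.251) and Gcn1l1 (−0.70, SE 0.28, adjusted p 0.227). DESeq2 called 3.63% of all genes and 1 member, Ppp1r15b (0.73, adjusted p 0.00248). By limma on FPKM 0 members were called, against 2.38% and 1.12% of all genes with 1 and 0.1 added to FPKM. Single libraries decided the calls: without halofuginone liver 1, edgeR called Ppp1r15b (0.69, adjusted p 0.0368), Eif2b5 (−0.56, adjusted p 0.0498) and Gcn1l1 (−0.82, adjusted p 0.0418), where 7.07% of all genes were called. Without halofuginone fat 3 it called 1.24% of all genes, Ppp1r15a (1.18, adjusted p 0.0431) and Ppp1r15b (0.84, adjusted p 0.0403) among them. So the rise of Gcn1l1, Eif2s1 and Eif2b5 in liver was not shown to differ from their values in fat with all libraries in the fit.

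Levels per transcript length put Ppp1r15b, Eif2b5 and Eif2s1 highest and Eif2ak4 lowest by their means in both vehicle tissues. In vehicle liver, Ppp1r15b was highest (21.9 ± 1.60 FPKM), followed by Eif2b5 (14.7 ± 1.06), then Eif2s1 (10.9 ± 0.956) and Eif2ak1 (10.3 ± 0.517), which overlapped each other. Ppp1r15a (4.78 ± 0.914 FPKM), Eif2ak3 (4.48 ± 0.966), Impact (4.09 ± 0.849), Gcn1l1 (3.93 ± 0.169) and Eif2ak2 (3.82 ± 0.498) followed with overlapping ranges, and Eif2ak4 was lowest at 1.36 ± 0.187 (SD, n = 5 throughout). In vehicle fat, Eif2b5 (23.7 ± 4.22 FPKM), Ppp1r15b (21.6 ± 1.11), Eif2s1 (21.2 ± 4.66), Impact (17.9 ± 5.70) and Ppp1r15a (16.4 ± 0.750) overlapped in a chain. Eif2ak1 (14.3 ± 0.938 FPKM) came next, below every library of Ppp1r15a, and Eif2ak4 was last by its mean at 3.76 ± 0.520 (SD, n = 3 throughout), with a range that overlapped that of Eif2ak2.

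Between the vehicle tissues, Impact was at 3.35 to 5.53 FPKM in liver and 11.8 to 23.1 FPKM in fat. In the joint edgeR fit it was higher in fat by 1.201 on the log2 scale (SE 0.22, adjusted p 0.000136) and kept this call in all 25 alternatives. Of all genes 72.3% were called in this comparison (40.9% higher and 31.5% lower in fat), and 74.2% had an unadjusted p under 0.05. Among the members 5 of 10 were called: Impact and Ppp1r15a higher in fat (0.59, adjusted p 0.0430), and Ppp1r15b (−1.21, adjusted p 1.00e-06), Eif2ak1 (−0.70, adjusted p 1.03e-05) and Eif2b5 (−0.51, adjusted p 0.0189) lower. These directions depend on scaling across tissues. With library size alone the median over all genes moved from 0.18 to 1.36, 8 of 10 members were called, all higher in fat, against 84.9% of all genes (73.3% higher). Eif2ak1 and Eif2b5 then turned to 0.49 and 0.68, and Ppp1r15b was at −0.013 and not called. Ppp1r15a stayed positive in all alternatives (0.52 to 1.78) but was not called in 9 of 25.

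Shares within a library, which need no scaling across tissues, also separated the vehicle groups. Ppp1r15a made up 15.9 to 21.5% of the summed FPKM of the phosphatase subunits in vehicle liver and 42.6 to 43.6% in vehicle fat, with no overlap. Under halofuginone it took 17.6 to 27.2% in liver, and 54.0, 53.3 and 39.0% in fat replicates 1 to 3, so fat replicate 3 lay below the vehicle range and the other 2 above it. Eif2ak4 took 5.68 to 8.01% of the kinase level in vehicle liver and 11.2 to 11.9% in vehicle fat.

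Other genes of the pathway were taken from lists drawn up by role. Of 10 further subunits and partners of eIF2 and eIF2B, 3 rose and 0 fell in liver (23.2% of all genes being called), with a median log2FC of 0.18. These were Eif2s2, the beta subunit of eIF2 (0.65, SE 0.16, edgeR adjusted p 0.0179), Bzw2, an eIF5 mimic (0.92, SE 0.22, edgeR adjusted p 0.0179), and Eif2b3, the gamma subunit of eIF2B (0.62, SE 0.18, edgeR adjusted p 0.0352). The other 7, including Eif2b1, Eif2b2 and Eif2b4, did not pass. With halofuginone liver 1 left out, Eif2s2, Bzw2, Eif2b3 and Cdc123, an assembly factor of eIF2 (0.29, SE 0.082, edgeR adjusted p 0.0166), were called. In fat 0 of 10 were called by edgeR, and 0 had an unadjusted p under 0.05, against 0% and 13.4% of all genes. Thus in liver Eif2b5 and Eif2b3 passed the test and 3 other eIF2B subunits did not, and differences among the subunits were not tested.

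The catalytic subunits of protein phosphatase 1, to which both Ppp1r15 proteins bind, changed in opposite directions in liver. Ppp1cb rose from 87.5 ± 4.86 to 112 ± 10.6 CPM (SD, n = 5; log2FC 0.36, SE 0.092, edgeR adjusted p 0.0216) and Ppp1ca fell from 107 ± 6.33 to 86.7 ± 4.67 CPM (−0.30, SE 0.082, edgeR adjusted p 0.0249). In both the groups did not overlap, halofuginone liver 1 included, against 11.7% of all genes (5.13% higher and 6.55% lower). Ppp1cc (0.076, SE 0.070) and the adaptor Nck1 (−0.32, SE 0.14) were not called, with edgeR adjusted p-values of 0.447 and 0.128. When halofuginone liver 1 was left out, Nck1 was called lower (−0.47, SE 0.12, edgeR adjusted p 0.00804), Ppp1cb and Ppp1ca stayed called (0.38 and −0.34) and Ppp1cc did not pass (0.056). In fat 0 of these 4 genes were called by edgeR or had an unadjusted p under 0.05, against 0% and 13.4% of all genes.

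Of 13 genes that activate or restrain the kinases, 6 rose and 1 fell in liver, against 12.7% and 10.5% of all genes. Their median log2FC was 0.39. The proteins of the ribosomal P-stalk, which can activate GCN2, were those with the smallest p: Rplp2 (0.54, SE 0.12, edgeR adjusted p 0.0137), Rplp1 (0.52, SE 0.12, edgeR adjusted p 0.0156) and Rplp0 (0.42, SE 0.11, edgeR adjusted p 0.0209). All 5 treated livers lay above vehicle for these 3 genes, as for 5.13% of all genes. The counts of these 3 are uncertain because ribosomal protein genes have many near-identical pseudogenes. Leaving out halofuginone liver 1 gave 8 higher and 1 lower, against 21.2% and 21.6% of all genes. The P-stalk genes were among the higher (0.46 to 0.61). In fat 0 of the 13 were called by edgeR and 1, Rplp2, had an unadjusted p under 0.05 (log2FC 0.63, SE 0.16, adjusted p 0.200). The shares of all genes were 0% and 13.4%. Of the 12 ATF4 targets, those with the smallest liver p were asparagine synthetase Asns (6.80, SE 0.74, edgeR adjusted p 0.000896), Sesn2, a restraint on mTORC1 (1.81, SE 0.26, edgeR adjusted p 0.00326), and the pseudokinase Trib3 (5.78, SE 0.81, edgeR adjusted p 0.00317). Their log2FC without halofuginone liver 1 were 7.08, 1.98 and 6.07, all called.

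The genes whose pattern was most like that of Gcn1l1, by Pearson's r of log2 CPM less the vehicle mean of the tissue over all 16 libraries and among 8139 genes with at least 5 CPM in each tissue, were Elp3 (0.971), Yipf3 (0.960), Wipi2 (0.954), Stk25 (0.945) and Pomt2 (0.940). These r values describe libraries that share the drug contrast in liver, and no test was made of them. Without halofuginone liver 1 they lay between 0.942 and 0.976, and within fat alone, over 6 libraries, between 0.821 and 0.919. Because these 5 genes were picked for likeness to Gcn1l1 over the same libraries, their fold changes follow largely from the choice. All 5 rose in liver, by 0.36 to 0.73 on the log2 scale, and all had a log2FC between −0.086 and 0.018 in fat.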

How the data were processed

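Per the labels' protocols, libraries were made from oligo(dT)-selected RNA with a NEBNext Ultra kit. Per the submitters' processing notes, fastp 0.18.0, Bowtie2 2.2.8, HISAT2, StringTie 1.3.1, RSEM and the build mm39 were used, with no role given, and annotation release and strand are not given in the sources used here, so overlapping and antisense genes are uncertain. The authors deposited counts (whole numbers, taken here as rounded estimated counts since in each library 1 to 31 genes were listed at 0 in counts but above 0 in FPKM) and FPKM, 1 column a library, 0 columns unmapped. Symbols came from a gene name table matching 22267 of 22322 identifiers.

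Each tissue was fitted with edgeR 4.0.16 (R 4.3.3; filterByExpr, TMM, glmQLFit, glmQLFTest, two-sided), and the tissue contrasts in 1 fit of 16 libraries. SE values come from the size of the fold change over the root of its F statistic. CPM use TMM-scaled library sizes of each tissue. Alternatives were DESeq2 1.42.0, limma 3.58.1 on log2 of FPKM plus 1 or 0.1 (genes with mean FPKM of at least 1), other scaling and filters, a replicate block, robust dispersion, a joint fit and leaving out each library. The scripts were tested on simulated data. No 2 libraries of a group agreed within sampling noise (smallest chi-square per degree of freedom 29.7), so each counted as 1 replicate.

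All 10 members were described. From each pathway list the 3 genes with the smallest liver p, or all of a list of 4, were named, and Hspa5, Cdc123, Eif2b1, Eif2b2 and Eif2b4 were named after their values were seen. The members and lists were chosen with earlier results of these data known.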

Additional observations from a re-analysis of the deposited data

Results flagged for a closer look

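Of 20 groups of 5 liver libraries (10 genes in 2 arms), 1 held a library whose gap to the nearest other exceeded 0.71 of the range of the group, where chance gives about 1. This was Eif2b5 in halofuginone liver 1, at 34.1 CPM with the next library at 56.0 CPM (gap 0.744 of the range).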

How the results depend on the processing

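The liver calls of Gcn1l1 and Eif2s1 held in all 20 alternatives, and that of Impact between the vehicle tissues in all 25. Over the 10 members and 4 comparisons, 774 of 860 recomputed log2 fold changes kept their direction and side of the threshold, 25 lost and 30 gained a call, and 31 reversed. Causes were not tested. Scaling by library size alone and limma on FPKM with pseudocounts of 1 and 0.1 each called 7 members in liver (29.5%, 28.7% and 28.7% of all genes), and values turned positive, uncalled, at 0.0053, 0.028 and 0.036 for Eif2ak3 and 0.082, 0.048 and 0.078 for Eif2ak4. Between the vehicle tissues the same 3 settings called 8, 8 and 8 members (84.9%, 83.8% and 83.9% of all genes) and turned 6 genes to positive values: Eif2ak1 (0.49, 0.45 and 0.48), Eif2ak2 (0.63, 0.42 and 0.47), Eif2ak3 (0.92, 0.79 and 0.91), Eif2s1 (0.96, 0.88 and 0.93), Eif2b5 (0.68, 0.64 and 0.67) and Gcn1l1 (1.11, 0.91 and 1.05). In fat, DESeq2 called 655 genes and 2 members, the fit of all 16 libraries 334 genes and 2 members, limma with a pseudocount of 1 called 13 genes, and no filter on low counts left 1 gene called. For the tissue difference, DESeq2 called 686 genes and 1 member, and limma with a pseudocount of 1 called 280 genes.

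With the replicate number as a block, edgeR called 1901 genes (15.4%) and 3 members in liver, and 0 and 0 in fat. For the tissue difference it called 20 genes (0.135%) and 0 members. Between the vehicle tissues, where the block was the number shared by liver and fat, it called 3 members, against 66.4% of all genes. Ppp1r15a (0.57, edgeR adjusted p 0.0957) and Eif2b5 (−0.43, edgeR adjusted p 0.0792) lost the call. In the other comparisons the block was the number within a tissue. Within a tissue, the numbers did not pair vehicle with halofuginone libraries. Same-numbered libraries of the 2 arms deviated with correlations of −0.16 to 0.057 in liver and −0.57 to 0.11 in fat. Of these libraries, 3 of 10 in liver and 1 of 6 in fat correlated best with their own number. Whether liver and fat libraries of the same number belong together was not tested. The joint fit without a block treated all 16 libraries as separate.

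Leaving out each library in turn gave 1275 (without halofuginone 3) to 5312 genes (without halofuginone 1) in liver, or 10.3% to 42.8%. The members called in liver were 3 to 6. Fat had 0 to 1 genes and 0 to 0 members. The tissue difference had 34 to 1053 genes (0.23% to 7.07%) and 0 to 3 members. Between the vehicle tissues 4 to 5 members were called, against 68% to 74.2% of all genes. In fat it gave −0.0084 to 0.11 for Eif2ak1, −0.018 to 0.19 for Eif2b5 and −0.12 to 0.26 for Gcn1l1. The tissue difference of Eif2ak2 ranged from −0.21 to 0.47, and the vehicle difference of Gcn1l1 from −0.32 to 0.091. Leaving out halofuginone liver 1, added after the data were seen for the lists, raised the phosphatase subunits called in liver from 0 to 1, the GCN2 regulators from 1 to 2, the further eIF2 and eIF2B genes from 3 to 4, the protein phosphatase 1 list from 2 to 3, the activators and inhibitors from 7 to 9, the ATF4 targets from 10 to 12 and the interferon-stimulated genes from 13 to 17. Over all liver genes the share called rose likewise, from 23.2% to 42.8%. The lowest count of a member was 127, and the common biological coefficient of variation was 0.229 in liver and 0.337 in fat.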
